A study of Mus musculus with 50 samples.

Results

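The mouse genome has 4 nuclear factor I genes, Nfia, Nfib, Nfic and Nfix, and all 4 were examined as places where the glucocorticoid receptor (GR) and the NFIA protein itself were called bound. They are 4 of the 21911 protein-coding genes in the annotation (mm10, GENCODE M21). They were taken by family membership, but the family was chosen with earlier results of these data known. For each gene the locus was the gene body joined with 50 kb on either side of its 5′ end, and a peak was assigned to it by an overlap of at least 1 bp. Of the 163859 peaks in the 39 deposited lists, 527 lay in these loci.

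NFI proteins bind DNA as dimers at the palindrome TTGGCNNNNNGCCAA, and less tightly at 1 arm of it. Nfia and Nfib are known as switches from neuron to glia production in the developing brain and as regulators of astrocyte differentiation, Nfix is known for its part in neural stem cells and the hippocampus, and Nfic is best known from tooth root formation. GR, the receptor for glucocorticoid hormones encoded by Nr3c1, binds the palindrome GAACANNNTGTTC as a dimer and also binds DNA beside other factors.

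The study used CUT&RUN, which cuts and sequences the DNA next to a bound antibody, to map GR and NFIA in sorted nuclei of mouse V1 (primary visual cortex) taken on postnatal day 14. The GR antibody was used on astrocytes of dark-reared (DR) and normally reared (NR) wild-type mice, on NR astrocytes of GR-KO mice (GRfl/fl with Cre) and of GR-Con mice (GRfl/fl with the inactive ΔCre), and on NR oligodendrocytes, inhibitory neurons and excitatory neurons. The NFIA antibody was used on NR astrocytes labelled wild type and on the same 3 other NR cell types. For astrocyte NFIA the study's methods name GRfl/fl mice with Cre or ΔCre instead, so which GR group matches these libraries is uncertain. GR was also mapped in 3T3 cells, a mouse fibroblast line, after 2 h of 200 nM dexamethasone (DEX), a synthetic glucocorticoid, or of vehicle, from 250000 or 50000 nuclei. Astrocyte nuclei were marked by a virus with the astrocyte promoter GfaABC1D, so Cre or ΔCre acted only where the virus reached; oligodendrocytes, inhibitory and excitatory neurons were marked by Sun1-GFPfl/fl with Olig2-Cre, Slc32a1-Cre or Slc17a7-Cre, of which Olig2-Cre marks the whole lineage. In vivo samples held 175000 nuclei, each replicate pooled 3 to 5 mice, and groups had 3 replicates except GR-KO, GR-Con and each 3T3 group, which had 2.

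A peak list holds no read depth, so the number of peaks in a list is the only measure of its yield. The NFIA astrocyte lists held 22373 to 27143 peaks, the NFIA lists of the 3 other cell types 1 to 4173, the GR lists of DR astrocytes 28 to 293 and of NR astrocytes 2262 to 21539, of GR-KO 413 and 1846, of GR-Con 6792 and 7761, and of the 3 other cell types 4 to 4563. The 3T3 lists held 189 to 5010 peaks and were cut at another q (highest 0.0498, against 0.00999 in vivo), so their numbers were not compared with the others. All 8 astrocyte marker genes had a site in at least 2 libraries of NFIA and of NR GR astrocytes, as did 66.7% and 52.2% of all genes. These astrocyte libraries also had sites at 6 (NFIA) and 5 (GR) of 8 oligodendrocyte markers. For excitatory neuron markers the numbers were 5 and 4 of 8, and for inhibitory neuron markers 2 and 1 of 8. The oligodendrocyte, inhibitory and excitatory neuron lists had sites at no more than 2 of 8 markers of their own type. The lists thus say little about which cells these were. Less binding, fewer cells of a type and a lower yield of a library cannot be told apart in such lists.

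The 4 genes differ widely in length. Nfia (ENSMUSG00000028565.18) spans 346 kb at chr4:97772734-98118874 on the plus strand, Nfib (ENSMUSG00000008575.17) 416 kb at chr4:82290173-82705750, Nfic (ENSMUSG00000055053.18) 59.5 kb at chr10:81396186-81455635 and Nfix (ENSMUSG00000001911.16) 100 kb at chr8:84699876-84800344, the last 3 on the minus strand. The Nfic and Nfix loci also hold the starts of 3 and 6 other genes and the Nfia locus of 1, so a peak there need not belong to the NFI gene.

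Sequences of 9 windows of 100 bases are shown because the results below turn on them (RefSeq genome GRCm38.p6, the build of mm10). Each is centred on the summit of an astrocyte NFIA or GR peak or, for the full NFI sites, on the match. Both Nfib windows, though labelled by GR, are centred on the NFIA summit of astrocyte replicate 1. The DR summit (82494958) and the summits of the 3T3 DEX peaks (82447283 and 82447177) lie outside them. So do the GR summits of NR replicate 2 at the first site (82494982) and of NR replicate 1 at the second (82447456). The Nfia window labelled by GR is centred on the GR summit of NR replicate 1. Outside it lie the summits of DR replicate 3 (97874994), NR replicates 2 and 3 (97874973 and 97874988) and GR-Con replicate 1 (97875131). Capitals mark matches to the NFI palindrome TTGGCNNNNNGCCAA or to 1 arm with its next base, TTGGCA, on either strand (TGCCAA when read on the plus strand). A match of the first kind can hold one of the second.
Nfia intron, strongest NFIA peak of the locus (chr4:97775136-97775235, plus strand): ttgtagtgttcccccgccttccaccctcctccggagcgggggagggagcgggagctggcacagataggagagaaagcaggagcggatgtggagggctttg
Nfia intron, first palindrome (chr4:97776463-97776562, plus strand): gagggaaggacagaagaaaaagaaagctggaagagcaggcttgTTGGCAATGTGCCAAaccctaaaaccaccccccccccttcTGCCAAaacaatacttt
Nfia intron, second palindrome (chr4:97869216-97869315, plus strand): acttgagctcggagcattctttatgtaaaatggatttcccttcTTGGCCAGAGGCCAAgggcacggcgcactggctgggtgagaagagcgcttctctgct
Nfia intron, GR in DR, NR, GR-KO and GR-Con (chr4:97875028-97875127, plus strand): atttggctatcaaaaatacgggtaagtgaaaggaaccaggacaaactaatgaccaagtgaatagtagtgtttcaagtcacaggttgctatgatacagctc
Nfib intron, GR in DR, NR, GR-KO and GR-Con (chr4:82494992-82495091, plus strand): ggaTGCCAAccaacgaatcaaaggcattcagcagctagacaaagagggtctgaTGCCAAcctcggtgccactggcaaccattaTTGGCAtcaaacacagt
Nfib intron, GR in DEX-treated 3T3 cells and astrocytes (chr4:82447353-82447452, plus strand): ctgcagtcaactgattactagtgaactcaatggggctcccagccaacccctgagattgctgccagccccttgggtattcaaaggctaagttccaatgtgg
Nfic intron, NFIA in 3 cell types (chr10:81435622-81435721, plus strand): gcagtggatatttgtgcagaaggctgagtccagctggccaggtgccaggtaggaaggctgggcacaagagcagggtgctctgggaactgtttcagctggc
Nfix intron, NFIA site (chr8:84744153-84744252, plus strand): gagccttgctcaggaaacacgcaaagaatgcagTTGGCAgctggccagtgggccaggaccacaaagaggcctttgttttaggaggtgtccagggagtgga
Nfix transcript start, strongest GR peak of the locus (chr8:84774466-84774565, plus strand): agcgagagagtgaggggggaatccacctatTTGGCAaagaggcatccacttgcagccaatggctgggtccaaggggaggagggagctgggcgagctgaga
The promoter of 1 annotated Nfix transcript (RefSeq, GRCm38.p6) is shown with its 140 bases inside a called site in capitals, and holds neither NFI motif nor the GR palindrome.
Nfix promoter (chr8:84780033-84780332, minus strand): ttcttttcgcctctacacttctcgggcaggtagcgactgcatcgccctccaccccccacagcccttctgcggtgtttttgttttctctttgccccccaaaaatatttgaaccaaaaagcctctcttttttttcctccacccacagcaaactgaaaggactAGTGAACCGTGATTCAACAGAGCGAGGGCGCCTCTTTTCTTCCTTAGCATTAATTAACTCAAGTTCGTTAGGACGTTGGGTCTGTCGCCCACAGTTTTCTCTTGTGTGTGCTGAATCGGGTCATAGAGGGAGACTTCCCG

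NFIA was called bound at all 4 NFI genes, its own included, in all 3 astrocyte libraries. Nfia had 31, 26 and 24 NFIA peaks, Nfib 23, 23 and 17, Nfic 15, 17 and 13, and Nfix 24, 22 and 22. These means of 27.0 ± 3.61, 21 ± 3.46, 15.0 ± 2.00 and 22.7 ± 1.15 peaks (SD, n = 3) placed Nfia at rank 7, Nfix at 10, Nfib at 12 and Nfic at 87 of 21911 genes, whose median was 1.67 peaks. Long loci collect more peaks, and per 100 kb of locus the order was Nfix with 15.1, Nfic with 13.7, Nfia with 6.82 and Nfib with 4.51 peaks, against a median gene with 1.33. By that density Nfix and Nfic stood at percentiles 99.8 and 99.7 of all genes, and Nfia and Nfib at 93.3 and 84.3.

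In the same cells GR was called bound at the same genes, with a wide spread between libraries. NR replicates 1, 2 and 3 had 15, 9 and 23 GR peaks at Nfia, 17, 2 and 19 at Nfib, 7, 0 and 12 at Nfic, and 20, 1 and 24 at Nfix. Replicate 2, whose list was the shortest of the 3, was the lowest at every gene. By mean number the ranks were 6 for Nfia, 7 for Nfix, 19 for Nfib and 408 for Nfic, and the median gene had 0.667 peaks. The densities of 9.97 (Nfix), 5.79 (Nfic), 3.95 (Nfia) and 2.72 (Nfib) peaks per 100 kb of locus followed the same order as for NFIA. They stood at percentiles 99.9, 98.3, 93.9 and 88.3 of all genes, whose median was 0.667. Within 50 kb of its 5′ end alone, Nfib had 0.667 GR peaks, equal to the median gene, and 2.0 NFIA peaks against a median of 1.33.

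Across groups, Nfia was highest for NFIA in astrocytes (27.0 peaks), followed by GR in NR astrocytes (15.7 ± 7.02; SD, n = 3), while GR averaged 5.0 ± 7.07 peaks in GR-KO and 14 ± 4.24 in GR-Con astrocytes (SD, n = 2 each). The GR libraries of NR and GR-Con astrocytes overlapped in peak number at each of the 4 genes, so these neighbouring levels did not differ beyond their spread. All other in vivo groups averaged under 2 peaks at each gene.

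**Figure D1:**
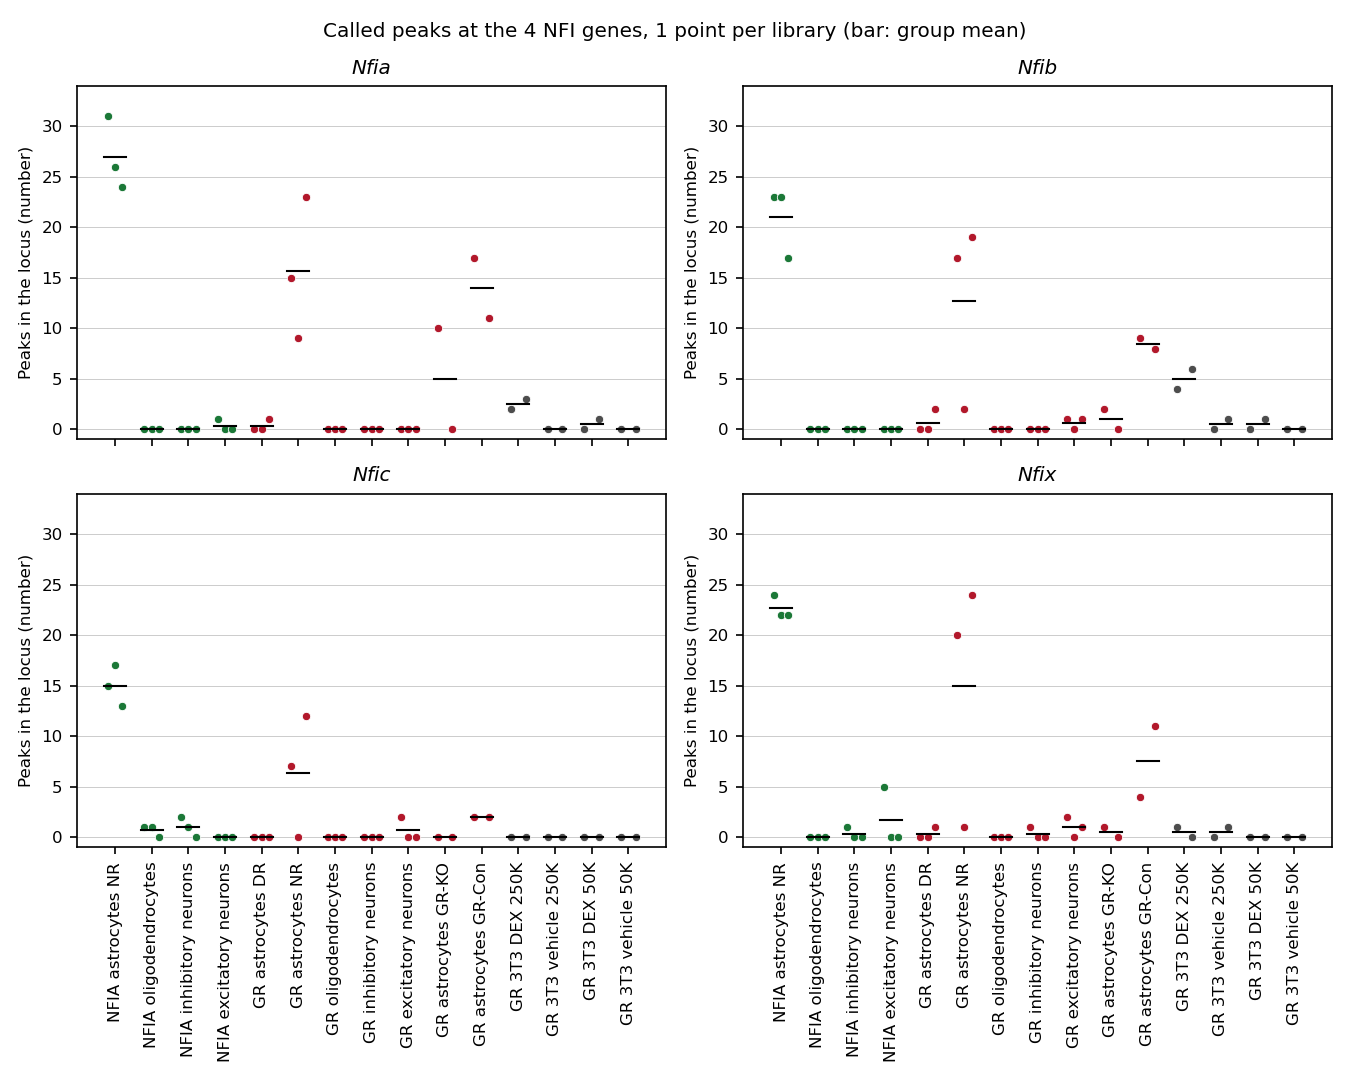
Number of called peaks in each NFI locus (y axis) by group (x axis), 1 panel per gene, where each point is 1 library and each bar the group mean. The 3 NFIA astrocyte libraries had 24 to 31 peaks at Nfia and the 3 NR GR libraries 9 to 23, and no library of oligodendrocytes or neurons had more than 5 peaks at any of the 4 genes.

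NFIA and GR in NR astrocytes were compared gene by gene on log2(peaks + 1), with an exact two-sided permutation test over libraries. NFIA exceeded GR by 0.83 at Nfia, 1.09 at Nfib, 1.76 at Nfic and 1.22 at Nfix, with exact p of 0.1, 0.3, 0.1 and 0.4 and Benjamini-Hochberg adjusted p over 15201 genes of 0.579 for Nfia and Nfic and 0.636 for Nfib and Nfix. A test of 3 libraries against 3 cannot go below 0.1, and the median gene differed by 0.80. At Nfia and Nfic every NFIA library was above every GR library, 2 of 4 genes where 17.3% of all genes tested were separated this way. With each list limited to its best 14012 peaks, the median length of the GR lists, NFIA had 56, 52 and 53 peaks at the 4 loci and GR 59, 12 and 56, and 1 of 4 genes was separated, against 7.12% of all genes.

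Within a list, member peaks lay near or above the middle by fold enrichment over IgG. Their median percentile was 56.2, 54.1 and 61.3 in the NFIA astrocyte lists and 59.8, 52.7 and 64.8 in the NR GR lists. The best NFI peak ranked 196, 317 and 72 in the NFIA lists and 52, 62 and 79 in the GR lists. Among the best 1% of each list, 3, 0 and 2 NFIA peaks and 1, 0 and 3 GR peaks were at NFI genes, so 1 library of each factor had none there.

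Sites, meaning regions with a peak in 2 or more replicates of a group, numbered 80 for NFIA in astrocytes (26 at Nfia, 19 at Nfib, 14 at Nfic, 21 at Nfix) and 53 for GR in NR astrocytes (14, 15, 5 and 19). Without NR replicate 1 or without NR replicate 3, only 12 GR sites met this rule. Having such a site was common, since 66.7% of all genes had 1 for NFIA and 52.2% for GR. Of the 53 GR sites, 51 (96.2%, 95% Wilson interval 87.2 to 99.0%) overlapped an NFIA site, and over all GR sites the share was 95.3% (94.9 to 95.7%). The share at NFI genes was thus within its interval of the genome-wide one. Of the 80 NFIA sites, 49 (61.3%, 50.3 to 71.2%) overlapped a GR site, against 50.4% (49.8 to 51.1%) of all NFIA sites, and by gene the share was 85.7% at Nfix, 63.2% at Nfib, 53.8% at Nfia and 35.7% at Nfic. That share rests on the longer GR lists and fell to 15.0% without NR replicate 1 or without NR replicate 3. Such intervals cover counting error only, since neighbouring sites are not independent.

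**Figure D2:**
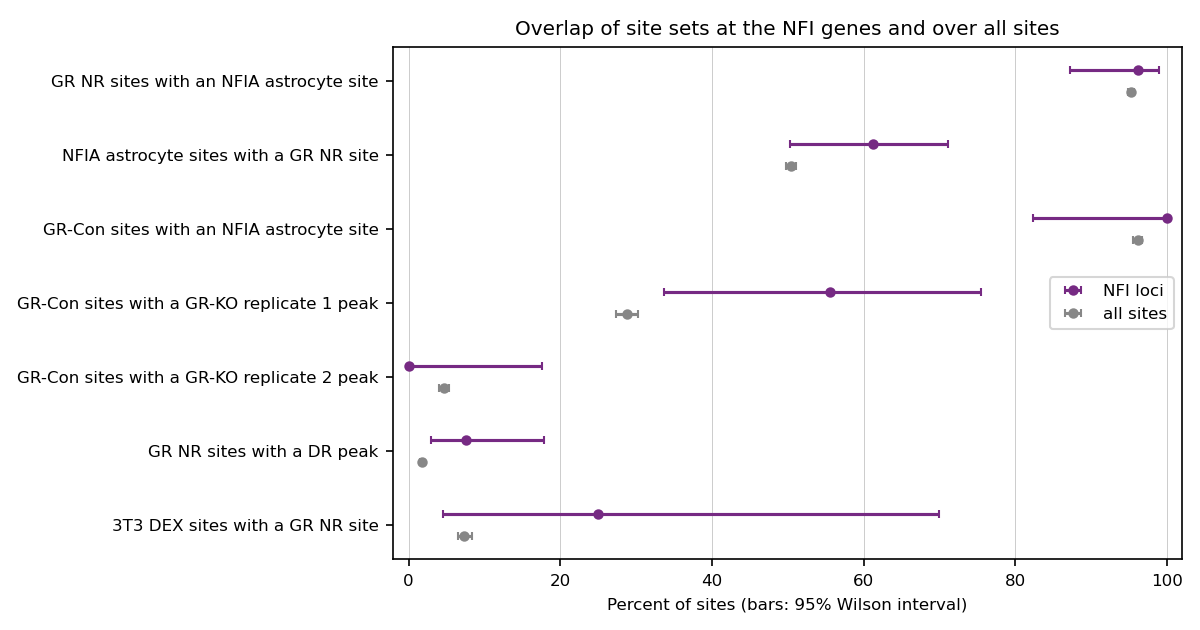
Percent of sites or peaks of one list overlapped by another by at least 1 bp (x axis), for each pair of lists (y axis), at NFI loci and over all sites, with 95% Wilson intervals as bars. GR sites of NR and GR-Con astrocytes overlapped NFIA sites at 96.2% and 100% at NFI loci, against 95.3% and 96.1% over all sites.

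Most sites lay inside the genes, away from starts. Of the 80 NFIA sites, 15 (18.8%, 11.7 to 28.7%) were within 500 bp of an annotated transcript start, against 38.8% of all NFIA sites, and for GR 9 of 53 (17.0%, 9.20 to 29.2%) against 44.0%. The loci include whole gene bodies of long genes, so part of this is set by how they were defined. After merging over all libraries, which gave 80 NFIA and 51 GR sites, introns of the member held 59 and 39 and its own promoters 12 and 6. Upstream of Nfia, where RefSeq places an earlier start, the promoter at chr4:97581693-97581992 had no astrocyte peak, while the 191 kb stretch before the locus (chr4:97531943-97722733) held 7 NFIA sites, 4 GR sites of NR and 0 of GR-Con astrocytes.

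**Figure D3:**
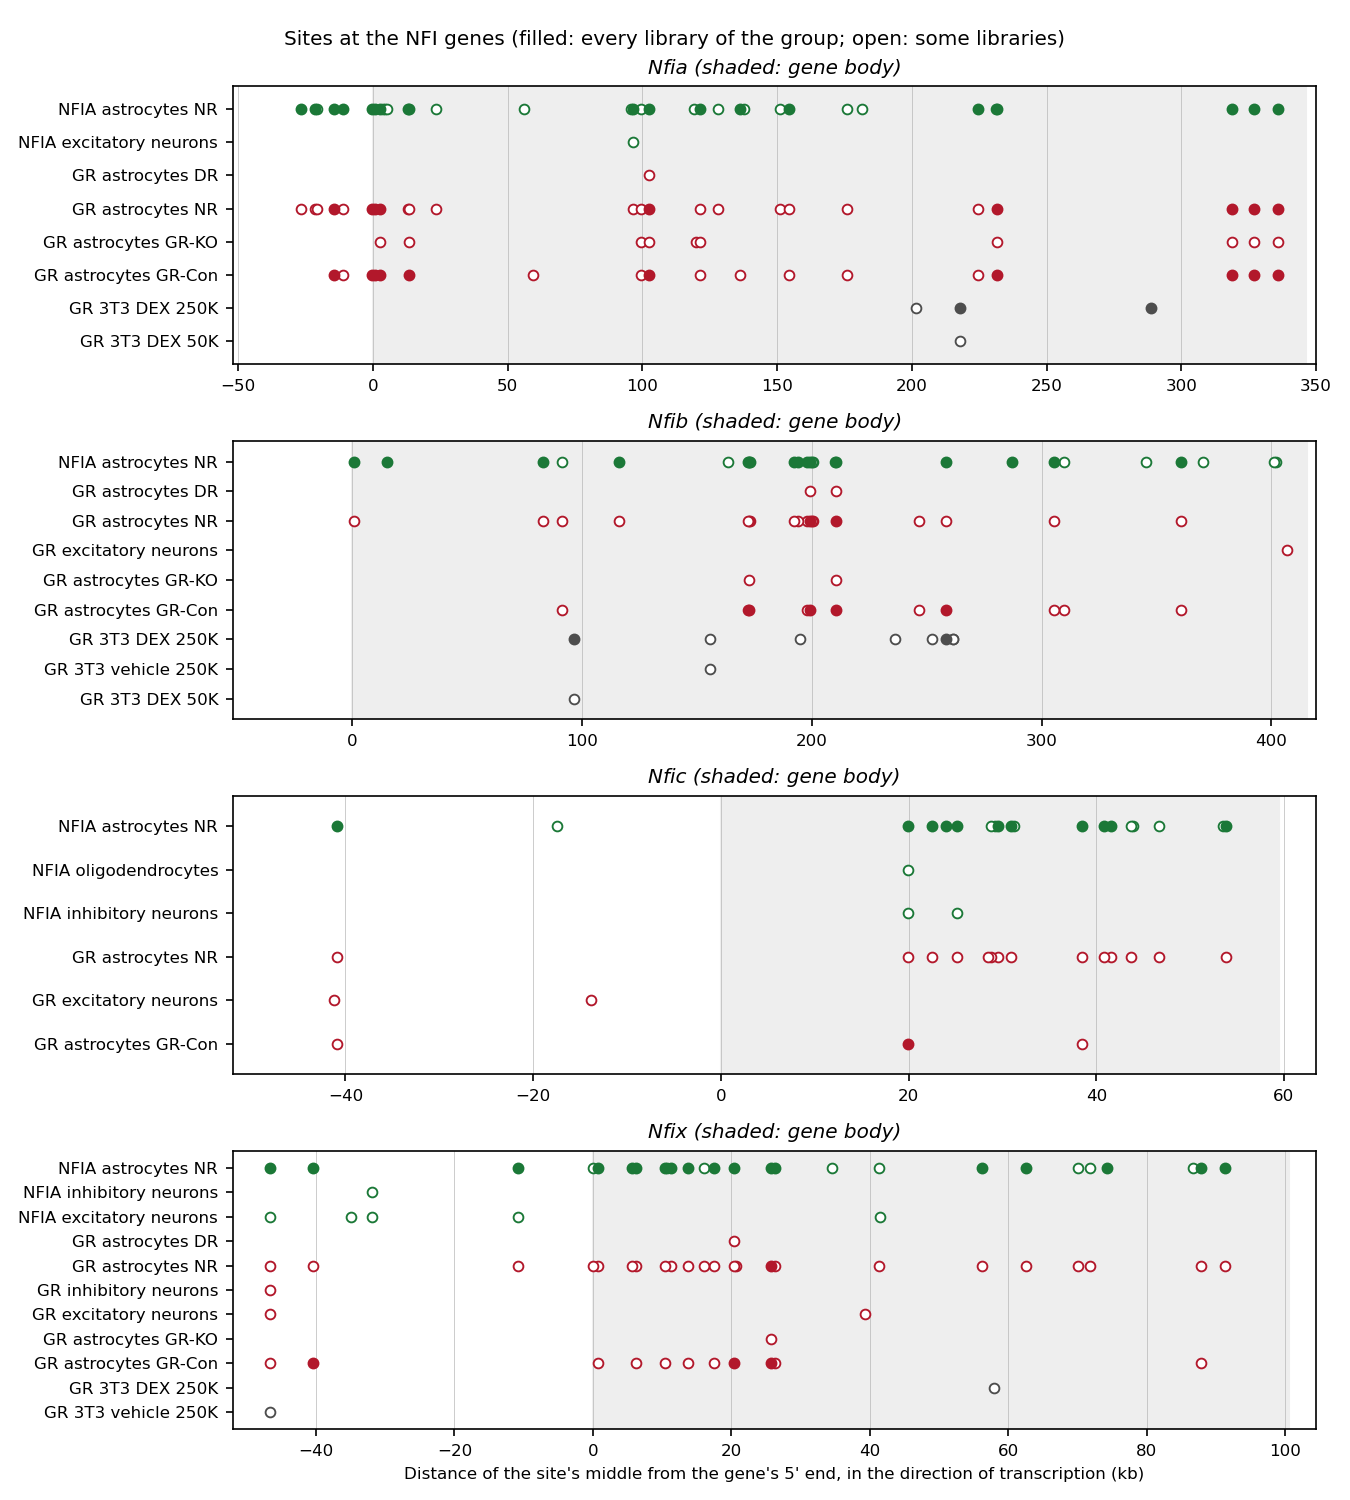
Sites by distance from the 5′ end of each gene in kb (x axis) and by group (y axis), where filled marks were called in every library of the group, open marks in some of them, and the shading is the gene body. NFIA and GR marks of NR astrocytes line up along the introns of all 4 genes, and the 3T3 marks at Nfia and Nfib mostly stand at other distances.

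The Nfia gene, which encodes the profiled factor, had the most sites that were also called in GR-KO replicate 1. At its 5′ end, a site at chr4:97772146-97772599 had NFIA folds over IgG of 9.62, 9.73 and 5.87 and GR folds of 6.51, 4.94 and 10.8 in NR and 3.30 and 7.87 in GR-Con, with no DR or GR-KO peak. In the first part of the gene, the intron site chr4:97775071-97775323, whose NFIA summit is shown above, had NFIA folds of 34.5, 19.9 and 19.1 and GR folds of 11.9, 5.46 and 25.3 in NR, 10.3 in 1 GR-KO library and 6.18 and 10.1 in GR-Con. Farther in, chr4:97874848-97875348 was called in 10 astrocyte libraries. There NFIA folds were 24.6, 14.8 and 8.62, and GR folds were 5.12 in DR replicate 3, 21, 13.7 and 14.9 in NR, 10.4 in GR-KO replicate 1 and 10.0 and 20.0 in GR-Con. The peak in GR-Con replicate 2 ranked 5 in its list, and the DR peak stood at percentile 10.9 of its list.

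Nfib, the paralogue that acts with Nfia in gliogenesis, had 2 sites with a DR peak. The promoter of an internal transcript at chr4:82506126-82507300 had NFIA folds of 13.1, 9.95 and 11.5 and GR folds of 10.9 in DR replicate 3, 7.83, 9.89 and 11.8 in NR and 5.77 and 7.91 in GR-Con. This merged region is 1175 bp wide, and each fold is that of the library's strongest peak in it. Those of NR replicates 1 (82506720-82506931) and 3 (82507005-82507300) did not overlap the DR peak (82506134-82506210). An intron site at chr4:82494910-82495185, whose window holds 3 matches to TTGGCA, had NFIA folds of 13.6, 12.7 and 11.0 and GR folds of 7.83 in DR replicate 3, 7.16, 6.68 and 11.6 in NR, 4.58 in GR-KO replicate 1 and 7.15 and 6.98 in GR-Con. At the 5′ end (chr4:82704793-82705435) NFIA was called in 3 libraries and GR in 2 of the NR libraries. Fold values depend on each library's own background. The folds given for these sites are therefore listed library by library and are not a comparison between libraries or groups. Only their place within a list was compared.

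Nfic had the fewest sites and the lowest share with GR. Its intron site at chr10:81435469-81435813 was the only member site called for NFIA in oligodendrocytes, with folds of 24.5, 23.9 and 19.0 in astrocytes, 4.38 and 5.25 in 2 oligodendrocyte libraries and 6.47 and 6.39 in 2 inhibitory neuron libraries. Both smaller groups called it in at least 2 libraries, where 1.56% (oligodendrocytes) and 3.78% (inhibitory neurons) of all genes had any such site. Which nuclei of those sorts gave the peak was not tested. GR was called there in NR replicates 1 and 3 (4.53 and 6.16) and in both GR-Con libraries (2.83 and 2.99). The site nearest the 5′ end lay in an exon of the neighbouring gene Celf5 and was called only for GR in 1 excitatory neuron library.

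Nfix had the highest density of sites. The strongest GR peak among its sites, at a transcript start (chr8:84774453-84774901), had NFIA folds of 21.1, 17.5 and 16.0 and GR folds of 17.7, 6.24 and 27.9 in NR, 6.34 in GR-KO replicate 1 and 5.00 and 15.6 in GR-Con. Near the 5′ end of the gene, chr8:84799430-84799689 had NFIA folds of 35.1, 21.8 and 23.6 and GR folds of 13.4 and 17.9 in NR replicates 1 and 3. The intron site chr8:84744119-84744311 had NFIA folds of 32.6, 27.5 and 33.9 and GR folds of 11.1 and 9.52 in the same 2 NR libraries. Across the promoter shown above lay a site (chr8:84779806-84780172) with NFIA folds of 8.95, 5.87 and 6.24 and GR folds of 6.77 in DR replicate 3, 5.21 and 8.85 in NR and 3.03 and 3.22 in GR-Con. The Nfix locus also takes in the promoter of Calr, a chaperone gene, where 11 libraries of 7 groups had a peak, at a median percentile of 3.91 in the NFIA astrocyte lists but at 49.6 in 1 GR list and 17.3 in 1 NFIA list of excitatory neurons, and this 1 site supplied the single member peak of the GR inhibitory neuron lists.

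**Figure D4:**
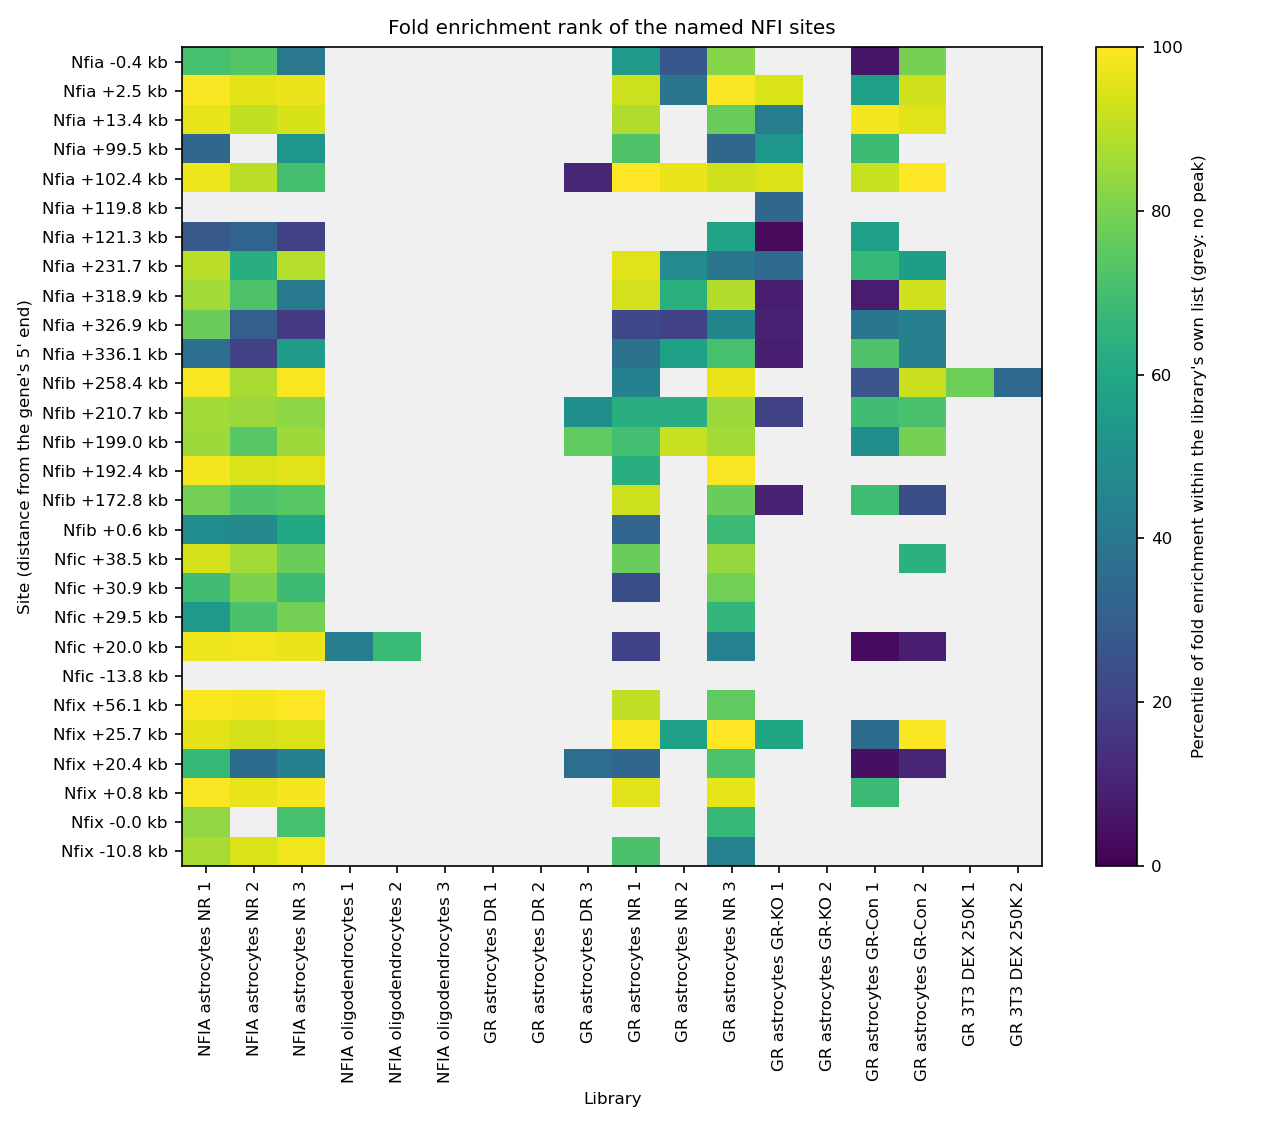
Percentile of fold enrichment within its own list (colour) for named sites of the 4 genes (rows) in the libraries shown (columns), where a grey cell means no peak. Most named sites were called in the 3 NFIA astrocyte libraries, and the DR and GR-KO columns are filled by 1 library each.

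Motifs were searched in 100-base windows at the summits, on both strands. TTGGCA was in 15 of 80 NFIA sites at NFI genes (18.8%) and 17.0% of all NFIA sites, against 6.25% and 5.16% of windows 1 kb away. For GR it was in 12 of 53 sites (22.6%) and 12.2% of all GR sites, against 7.55% and 4.98% of windows 1 kb away. The palindrome TTGGCNNNNNGCCAA was in the window of 1 of 80 NFIA sites (1.25%, against 0.362% of all) and in none of the 53 GR sites, and over their whole length 2 NFIA sites held it, both in Nfia introns. The GR palindrome GAACANNNTGTTC was in none of the 80 NFIA or 53 GR windows, and in 0.0851% and 0.120% of all NFIA and GR windows. Its inner part ACANNNTGT was in 5.0% of the NFIA windows and 5.66% of the GR windows at NFI genes, against 2.28% and 2.50% of all. Of 6 RefSeq promoters matched to Nfia, Nfic and Nfix, none held any of the 4 motifs, of which TTGGCA is in 14.1%, ACANNNTGT in 6.85%, GAACANNNTGTTC in 0.0578% and TTGGCNNNNNGCCAA in 0.0365% of 32851 promoters. A match is a description of letters, and no match says nothing about binding.

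GR peaks at the NFI genes were next compared between DR and NR astrocytes, to ask whether rearing without light was accompanied by other GR binding. DR replicates 1 and 2 had no peak at any member, and replicate 3 had 1 at Nfia, 2 at Nfib and 1 at Nfix. The NR libraries had 59, 12 and 78 peaks at the 4 genes together, so every DR library was below every NR library in the sum. Per gene, DR was lower than NR by log2 differences of -3.64 (Nfia), -2.83 (Nfib), -2.23 (Nfic) and -3.01 (Nfix), with exact p of 0.1, 0.2, 0.4 and 0.2 and an adjusted p of 0.402 for each over 11705 genes. Only Nfia was separated, 1 of 4 genes where 22.3% of all genes were, and the median gene differed by -1.19. Without NR replicate 2 the DR libraries were below at 4 of 4 genes, and without DR replicate 3 at 3. The share of all genes on these omissions is not given, so the rise is not a result about the NFI genes. As a share of the list, DR replicates 1 and 2 held 0 member peaks (of 69 and 28 peaks, upper 95% Wilson limits 52.7 and 121 per 1000) and DR replicate 3 held 13.7 per 1000 (4 of 293; 5.32 to 34.6), against 4.21, 5.31 and 3.62 per 1000 in NR, so the DR shares lay on both sides of the NR ones. All 4 DR peaks overlapped an NFIA site, as did 70.0% of all peaks of that library. A DR peak fell on 4 of the 53 NR sites (7.55%, 2.97 to 17.9%), against 1.80% (1.58 to 2.05%) of all NR sites. With at most the best 69 peaks of each list (DR replicate 2 has only 28), DR had 0, 0 and 0 and NR 1, 1 and 0 member peaks. No gene was then separated, against 4.65% of all.

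GR-KO and GR-Con astrocytes ask how much of the called binding depends on the receptor. GR-KO replicates 1 and 2 had 10 and 0 peaks at Nfia, 2 and 0 at Nfib, 0 and 0 at Nfic, and 1 and 0 at Nfix, and GR-Con replicates 1 and 2 had 17 and 11, 9 and 8, 2 and 2, and 4 and 11. Both GR-KO libraries were below both GR-Con libraries at all 4 genes, as at 79.1% of all genes. The log2 differences were -2.15 (Nfia), -2.45 (Nfib), -1.58 (Nfic) and -2.45 (Nfix) with a median of -1.21 over 5946 genes, exact p of 0.333, the smallest that 2 libraries against 2 allow, and adjusted p of 0.421. For the 4 genes together the difference was -3.14, and -1.24 without GR-KO replicate 2. GR-Con had 18 sites at NFI genes (10, 4, 1 and 3 at Nfia, Nfib, Nfic and Nfix, where 22.5% of all genes had 1), and GR-KO had none. Of these 18, 10 (55.6%, 33.7 to 75.4%) also had a peak in GR-KO replicate 1, against 28.8% (27.4 to 30.2%) of all GR-Con sites, and none (0 to 17.6%) in replicate 2, against 4.69%. In GR-KO replicate 1, 12 of the 13 member peaks overlapped a GR-Con peak and 12 an NFIA site (85.4% and 87.0% of all its peaks). Its share of the list was 7.04 per 1000 (4.12 to 12) and that of GR-KO replicate 2 was 0 (0 to 9.22), against 4.12 (2.92 to 5.81) and 4.71 (3.34 to 6.64) in GR-Con. With at most 1129 best peaks per list (the median length of the GR-KO lists), GR-KO had 5 and 0 and GR-Con 2 and 8, and no gene was separated, against 28.2% of all. No value in peak lists shows how much GR was left in the GR-KO nuclei.

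Between cell types, GR was called at NFI genes mainly in astrocytes. NR astrocytes had 59, 12 and 78 member peaks, against 0, 0 and 0 in oligodendrocytes, 1, 0 and 0 in inhibitory neurons and 5, 0 and 2 in excitatory neurons. No library of another type reached the lowest astrocyte library in the sum. Against the 9 other libraries the log2 difference was 3.97 at Nfia, 3.14 at Nfib, 2.06 at Nfic and 2.95 at Nfix, with exact p of 0.00455, 0.00455, 0.0455 and 0.0182. Adjusted over 13050 genes these became 0.0534 for Nfia and Nfib and 0.0752 for Nfic and Nfix, so none passed 0.05 in this exact permutation test, and neither did any other gene, although 7885 had an unadjusted p under 0.05. Nfia and Nfib were separated from all 9 libraries, 2 of 4 genes against 8.51% of all genes. Without NR replicate 2 all 4 genes passed the same exact permutation test (adjusted p = 0.0278 each, differences 4.29, 4.02, 3.17 and 4.12), as did 74.2% of all genes.

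Taken by single cell types, astrocytes were separated at 3 of 4 genes from oligodendrocytes (21.9% of all genes), at 2 of 4 from inhibitory neurons (13.7%) and at 2 of 4 from excitatory neurons (10.4%). Without NR replicate 2 astrocytes were separated at 4 of 4 genes from each of these types and from all 3 together. The share of all genes separated on that omission is not given. Since 74.2% of all genes passed the adjusted test on the same omission, these counts are not a result about the NFI genes. Longer lists had more member peaks. Among single lists of like length, NR astrocyte replicate 2 with 2262 peaks had 12 member peaks. There were 1 and 0 in inhibitory neuron lists of 2446 and 1534 peaks and 2 in an excitatory neuron list of 1644. GR-KO replicate 1 with 1846 peaks had 13, but its astrocytes are those with the receptor deleted. How far list length accounts for the difference between cell types was not tested. With at most 916 best peaks per list, the NR astrocyte libraries had 4, 4 and 5 member peaks and no other library more than 1. Nfia alone was then separated, 1 of 4 genes against 7.78% of all. The same limit set for single cell types left 0 of 4 genes separated from oligodendrocytes (4.42% of all, at most 81 peaks per list), 3 of 4 from inhibitory neurons (13.4%, at most 1534 peaks) and 2 of 4 from excitatory neurons (14.1%, at most 1644 peaks). Of the 12 sites called in neurons, 5 were also called in astrocytes, and 1 in Nfib (chr4:82298693-82298795) was called in 2 GR libraries of excitatory neurons and nowhere else.

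NFIA showed a larger gap between cell types in the full lists. Astrocytes had 93, 88 and 76 member peaks, against 1, 1 and 0 in oligodendrocytes, 3, 1 and 0 in inhibitory neurons and 6, 0 and 0 in excitatory neurons. The log2 differences from the 9 other libraries were 4.69 (Nfia), 4.45 (Nfib), 3.48 (Nfic) and 4.17 (Nfix), each with the smallest exact p of 0.00455 and an adjusted p of 0.00605, and astrocytes were above every other library at all 4 genes. This was shared by most of the genome, with 75.3% of genes separated and 95.1% past the adjusted threshold, and the median gene differed by 1.72. With few peaks in the other cell types, such differences follow the number of astrocyte peaks in a locus. They were not adjusted for locus length, so they do not show a gap particular to the members. Against oligodendrocytes, inhibitory and excitatory neurons singly, all 4 genes were separated, where 90.7%, 84.7% and 80.4% of all genes were, with adjusted p of 0.110, 0.118 and 0.124. With at most 246 best peaks per list the gap was not seen, since astrocytes had 2, 0 and 2 member peaks, oligodendrocytes 1, 1 and 0, inhibitory neurons 1, 1 and 0 and excitatory neurons 0, 0 and 0, and no gene was separated against 14.3% of all. Limits set for single cell types left 0, 2 and 0 of 4 genes separated from oligodendrocytes, inhibitory and excitatory neurons (21%, 26.2% and 41.4% of all). At such a length few member peaks of any library remain, and a difference was not detectable. Whether the gap between astrocytes and another cell type differed between NFIA and GR was tested per gene, and no member passed (exact permutation test, adjusted p 0.638 to 0.927).

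**Figure D5:**
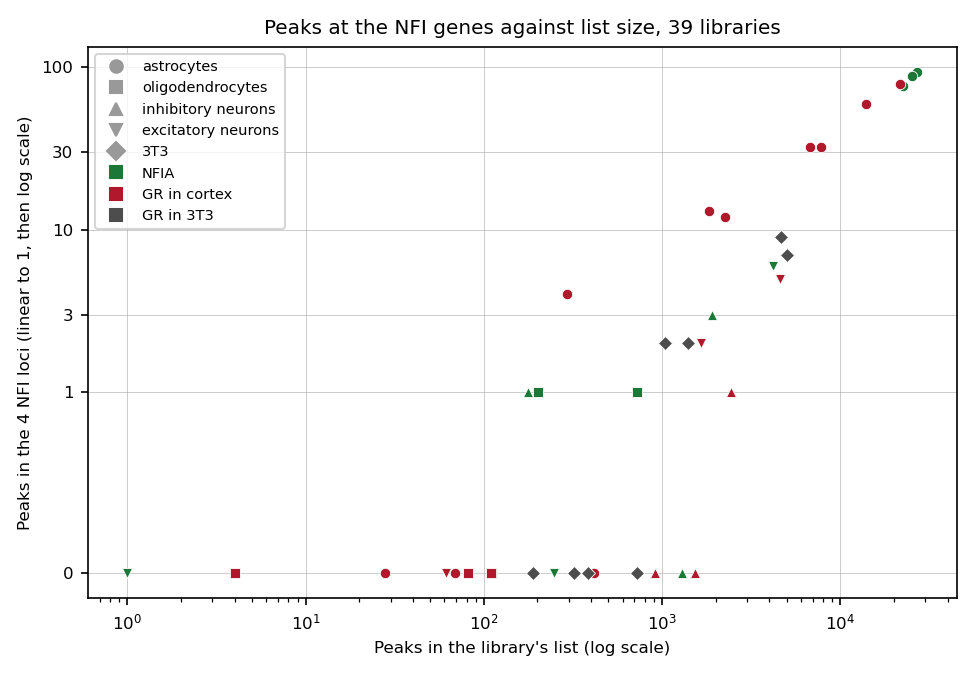
Peaks at the 4 NFI loci together (y axis) against the number of peaks in the list (x axis) for each of the 39 libraries, with both axes on log scales (the y axis linear up to 1), symbols for cell type and colours for antibody and source. Long lists had more member peaks. Among lists of 1534 to 2446 peaks, GR in NR astrocyte replicate 2 and in GR-KO replicate 1 had 12 and 13 member peaks, and lists of the other cell types 0 to 3.

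In 3T3 cells, GR was called at Nfia and Nfib after DEX but at other places than in astrocytes. From 250000 nuclei, DEX libraries had 2 and 3 peaks at Nfia, 4 and 6 at Nfib, 0 and 0 at Nfic, and 1 and 0 at Nfix, and vehicle libraries 0 and 0, 0 and 1, 0 and 0, and 0 and 1. From 50000 nuclei, 1 of the 2 DEX libraries had 1 peak at Nfia and 1 at Nfib, and both vehicle libraries had none. DEX exceeded vehicle by 1.15 at Nfia and 1.28 at Nfib (exact p of 0.167, labels exchanged within each number of nuclei; adjusted p = 0.460 over 3204 genes), by 0 at Nfix, and Nfic had no peak to test. DEX and vehicle libraries were separated at 0 of 4 genes, against 10.0% of all genes. With at most 351 best peaks per list they were separated at 0 of 4 (7.2% of all). Without DEX replicate 1 of 50000 nuclei 1 of 4 was separated, with no share of all genes to set beside it. Of 12 member sites called after DEX, 1 was also called in astrocytes. Nfia and Nfib had 2 sites each in both DEX libraries of 250000 nuclei, where 11.4% of all genes had such a site. Of these 4, 1 overlapped a GR site of NR astrocytes and an NFIA site (all DEX sites, 7.38% and 10.6%). That was the Nfib intron site chr4:82447096-82447530, with DEX folds of 8.27 and 5.80, NFIA folds of 31.6, 13.6 and 24.1, and GR folds of 5.82 and 18.4 in NR replicates 1 and 3. The 3T3 summits at 82447283 and 82447177 stood apart from the NFIA summits at 82447403, 82447432 and 82447403. Sites seen only in 3T3 cells included chr4:97990539-97990768 in Nfia and chr4:82609322-82609520 in Nfib, each in 3 DEX libraries and no vehicle library.

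The members had 14 to 26 NFIA and 5 to 19 GR sites in NR astrocytes, against medians of 6.0 NFIA and 4.5 GR sites both over 16 regulators of gliogenesis and over 12 astrocyte genes, and of 1.0 for either factor over all genes. These numbers were not adjusted for locus length, and the member loci span 109 to 466 kb, so they do not show denser binding at the members. Of the 16 regulators, 16 had an NFIA site and 15 a GR site in NR astrocytes, and of the 12 astrocyte genes known as NFI targets or markers all 12 had both, against 66.7% (NFIA) and 52.2% (GR) of all genes. Of 10 genes for the receptor, its relatives and cofactors, 8 had an NFIA site and 6 a GR site. The genes named next are those with the most NFIA sites in each list. Zbtb20, a repressor that promotes astrocyte formation, had 19 NFIA and 17 GR sites, Notch1 and Notch2, receptors that keep progenitors undifferentiated, 15 and 8 and 14 and 8, and Pou3f2, a neural POU factor, 11 and 7. Aldh1l1, a folate enzyme and astrocyte marker, had 20 and 18, Kcnj10, the Kir4.1 potassium channel, 20 and 14, Slc1a2, the GLT-1 glutamate transporter, 14 and 9, and Mmd2 8 and 7. In the list of the receptor, its relatives and cofactors, the receptor gene Nr3c1 had 5 NFIA and 2 GR sites, Ncor1 4 and 3, and Crebbp 4 and 0. Ncoa1 with 3 and 1 was tied in NFIA sites with Nr3c2, which had 3 and 2. Of the 16, 12 and 10 genes, 15, 12 and 7 had every NFIA astrocyte library above all 9 libraries of other cell types (75.3% of all genes) and 7, 7 and 1 did for GR (8.51%). For GR, 7, 8 and 1 had every DR library below every NR library (22.3%), and 10, 8 and 2 every GR-KO library below every GR-Con library (79.1%).

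Over all 39 libraries, the genes whose peak numbers followed a member most closely by Pearson's r of log2(peaks + 1) were Atp6v1h, Gramd3 and Cpe for Nfia (0.986, 0.985 and 0.984), Sik3, Enah and Zmiz1 for Nfib (0.963, 0.962 and 0.960), Srebf1, Impdh2 and Gstm5 for Nfic (0.982, 0.975 and 0.965) and Mllt11, Akt2 and Hist2h2bb for Nfix (each 0.966). These values describe libraries that share their list length, with which the members themselves had r of 0.699 (Nfia), 0.730 (Nfib), 0.626 (Nfic) and 0.730 (Nfix) on the log2 scale.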

How the data were processed

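The authors made each list from 1 CUT&RUN library. Per the labels and the study's methods, reads were trimmed with cutadapt, aligned to mm10 with Bowtie2, deduplicated with Picard, filtered with SAMtools and deepTools to fragments of up to 120 bp, and peaks were called with MACS2 against IgG; the sources used here do not give the IgG library behind each call. The deposited values are the fold enrichment over IgG at the summit, a ratio, and −log10 p and −log10 q values per peak, as MACS2 wrote them. Of 50 samples, 39 had a list, and the other 11 (IgG and GFP-negative nuclei) were not analysed here.

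Peaks were counted per locus and library, and groups were compared on log2(peaks + 1) with exact two-sided permutation tests over libraries, for every protein-coding gene with a peak in at least 2 libraries of the comparison, with Benjamini-Hochberg adjustment over those genes (Python 3.11.15, numpy 2.4.6, pandas 2.3.3, scipy 1.17.1, checked on simulated data). Overlapping peaks were merged, and a site is such a region with a peak in 2 or more replicates of its group. Fold was compared only as a rank within a list. Percentages of genes separated, called or bound are over all genes tested, and serve as background. Alternatives were other windows, pseudocounts, q limits, overlap rules, a common upper limit of best peaks per list, shares of the list, and leaving out each library.

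Replicates are those of the labels, and each in vivo one pools several mice, so p-values cover the spread between such pools, part of which may be technical. All 4 members were named. Named sites were the one nearest each 5′ end, up to 4 in every NFIA astrocyte library by median percentile (those in every NR GR library first), and each with a DR, GR-KO or oligodendrocyte peak, from which the text gives a selection. From each gene list, up to 4 genes with the most NFIA sites were named, plus a gene tied for the last place, and as most alike the 3 genes over 1 Mb away with the highest r. The members, lists and tests were chosen with earlier results of these data known.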

Additional observations from a re-analysis of the deposited data

How the results depend on the processing

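Of 539 values under another setting, 463 kept direction and call. These include all under the replicate block, which exchanges labels only within same-numbered pairs. That leaves each difference as it is (DR minus NR sum, -4.53), so keeping it was fixed in advance and is no sign of stability. Deviations of same-numbered samples from their group means had correlations of -0.0701 to 0.145 over genes. Many lists are too short to show a shared deviation, so these values cannot decide whether the numbers pair the samples. List length, which stands in for unknown depth, limits most comparisons, and the cause of the changes below was not tested. Values are log2 differences for the 4 loci together unless named.

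With a common upper limit of best peaks per list, DR minus NR was -0.67 with 0 genes separated, GR-KO minus GR-Con -1.08 with 0, and DEX minus vehicle -0.25. Lists shorter than the limit kept all their peaks, so list lengths were made closer but not equal. DR replicate 2 kept 28 where the limit was 69, and GR-KO replicate 2 kept 413 where it was 1129. For GR, NR astrocytes minus oligodendrocytes was 1.00 with 0 separated, minus inhibitory neurons 3.25, minus excitatory neurons 2.30, and minus all 3 types 2.19 with 1 separated, where Nfic differed by 0. For NFIA, the same differences were 0.53 with 0 separated, 2.20 with 2, 1.06 with 0 and 0.61 with 0, where Nfia differed by 0.33, Nfib by 0, Nfic by -0.33 and Nfix by 0.75, none past the threshold (adjusted p of 1.0, 1.0, 0.954 and 0.263, exact permutation test). NFIA minus GR had 1 gene separated.

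The next values are mean log2 differences of peaks per 1000 of the list, with 1 added to the peaks of each library where any library of the comparison had 0. Short lists without a member peak (all 3 GR oligodendrocyte lists, 2 of DR, and an NFIA excitatory neuron list of 1 peak) then get high values, so negative differences against them show no higher share in those cells. They were 2.20 (DR minus NR), -0.085 (GR-KO minus GR-Con), -0.34 (NFIA minus GR) and -0.90 (DEX minus vehicle). For astrocytes minus oligodendrocytes, inhibitory neurons, excitatory neurons and all 3, they were -2.76, 2.43, 0.40 and 0.022 for GR and -0.86, 0.40, -2.45 and -0.97 for NFIA. With lists pooled by group, an alternative chosen after seeing the data, they were 1.38, 0.39 and -0.20 for DR minus NR, GR-KO minus GR-Con and NFIA minus GR, 1.82 for GR against excitatory neurons, 2.48 for GR against all 3, and 0.83, 1.53, 1.34 and 1.33 for NFIA.

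In the 50 kb window alone, GR against oligodendrocytes was 4.29, 1 gene was separated for GR against inhibitory neurons, excitatory neurons and all 3 and for NFIA minus GR, NFIA was 4.78 against oligodendrocytes, 4.44 against inhibitory neurons and 4.60 against all 3, and DEX minus vehicle was -0.25. Around any transcript start, 2 genes were separated for DR. A pseudocount of 0.5 gave 6.37 for NFIA against oligodendrocytes. GR sites called in every NR library numbered 12, and with a q of at most 0.001, 100.0% of GR sites overlapped NFIA.

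Leaving out 1 library at a time gave 1 to 4 genes separated for DR minus NR, -5.04 to -1.24 for GR-KO minus GR-Con, 2 to 4 genes separated for GR against inhibitory neurons, excitatory neurons or all 3, 0 to 1 for DEX, 12 to 53 GR sites, and overlaps of 90.6 to 100.0% of GR and 15.0 to 69.1% of NFIA sites. Counts of genes separated here and in the preceding paragraph have no share of all genes beside them, so they are not results about the NFI genes.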
